A study of Mus musculus with 6 samples.

Results

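MiR-26a and miR-26b were followed in the aortas of Apoe-/- mice with and without endothelial Dicer, and made up 2 of the 596 mouse miRNA assays measured. Their rows were found by name, each has 1 assay, and other strands of their hairpins were not analysed here. The samples were whole aortas of 3 EC-Dicerflox mice (VE-Cadherin-CreERT2Dicer1flox/flox/Apoe-/-) and 3 EC-DicerWT littermates (VE-Cadherin-CreERT2Dicer1WT/WT/Apoe-/-). Mice of both groups lacked apolipoprotein E and carried the Cre recombinase, which the VE-cadherin promoter drives in endothelial cells (ECs) and which tamoxifen (TMX) switches on. TMX was injected on 5 days in a row, at 2 mg for every 20 g of weight, and a high-fat diet (HFD) was then given for 4 weeks to mice of 6 to 8 weeks of age. The sex is male in the labels but female in the methods of the study, and it enters none of the results. The cards measure no mRNA, so that the loss of Dicer could not be checked from these data. The study reports lower Dicer mRNA in aortas of EC-Dicerflox than of EC-DicerWT mice after the same time on HFD, and in ECs isolated from aortas. It does not say whether the aortas profiled here were among those tested.

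MiRNAs are short RNAs that lower the translation and stability of mRNAs matching their seed, the bases near the 5′ end. Dicer cuts them out of hairpin precursors. The miR-26 hairpins lie in genes of the CTDSP family, which encode small phosphatases of the carboxy-terminal domain of RNA polymerase II, and they are transcribed together with these hosts. MiR-26a is known for repressing SMAD1, a transcription factor that carries signals of bone morphogenetic proteins into the nucleus of ECs, and through it for restraining endothelial growth and angiogenesis. In the discussion of the study, miR-26a is placed among the miRNAs of slower turnover in ECs with silenced Dicer, and miR-103 among those that turn over faster.

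The mature sequences are shown because they are what the 2 assays had to tell apart. Sequences are from RefSeq (GRCm38.p6), 5′ to 3′, with the seed (bases 2 to 8) in capitals.
miR-26a-5p: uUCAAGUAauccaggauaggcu
miR-26b-5p: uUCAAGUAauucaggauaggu
The seed UCAAGUA was identical in both, and of the 1679 mature mouse miRNA names listed there 2 carried it, which are these. Over the 21 bases that both have, counted from 1 at the 5′ end with the base of miR-26a first, 19 were identical and the differences were C11U and C21U. MiR-26a is 22 bases long and ends 1 base later than miR-26b.

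The hairpins are shown because they are the substrates of Dicer and because both assays analysed here read the mature 5′ strand, which is in capitals. They are written 5′ to 3′, and all 3 lie on the plus strand of GRCm38.p6.
Mir26a-1 (chr9:119031796-119031885, within Ctdspl): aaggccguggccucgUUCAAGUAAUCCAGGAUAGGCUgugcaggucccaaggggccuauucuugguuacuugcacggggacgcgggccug
Mir26a-2 (chr10:126995530-126995613, within Ctdsp2): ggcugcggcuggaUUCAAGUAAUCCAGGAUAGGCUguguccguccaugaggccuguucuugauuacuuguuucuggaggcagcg
Mir26b (chr1:74394310-74394394, within Ctdsp1): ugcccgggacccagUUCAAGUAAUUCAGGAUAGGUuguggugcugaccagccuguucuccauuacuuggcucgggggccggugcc
Mir26a-1 and Mir26a-2 give the same mature miR-26a, so that 1 assay measured the product of both genes together. Mir26b is the only source of miR-26b in the table.

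Each value is a CT, the PCR cycle at which the fluorescence of an assay crosses its threshold. A lower CT means more RNA, and 1 cycle is a factor of 2 if amplification is complete. Wells without signal are listed at 40. The median CT of the 350 assays under 40 in all 6 samples ranged from 26.4 to 28.2, and 375 to 415 assays were under 40 per sample. EC-Dicerflox replicate 3 had the latest median and the fewest assays under 40. The tissue carried the miRNAs of an artery: miR-145 and miR-143 of smooth muscle had a CT of 14.7 to 15.0 and of 16.9 to 18.1, and miR-126-3p of ECs had a CT of 17.1 to 19.1. MiR-133a of striated muscle was read as well, at a CT of 18.4 to 20.2.

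MiR-26a was among the miRNAs of the aorta with the earliest CT. Its CT was 18.0, 17.9 and 19.1 in EC-Dicerflox replicates 1, 2 and 3, and 18.1, 19.0 and 18.7 in EC-DicerWT replicates 1, 2 and 3. The CT of miR-26b was 20.7, 20.5 and 22.5 in EC-Dicerflox and 20.8, 21.8 and 21.9 in EC-DicerWT aortas, in the same order. Both miRNAs were detected in 6 of 6 samples, far from the limit of 40. The latest wells of both were in EC-Dicerflox replicate 3, and the raw CT of the groups overlapped.

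Within each sample, miR-26a lay 7.84 to 9.09 cycles before the median assay and miR-26b 5.02 to 6.09 cycles. By CT, miR-26a ranked between 10 and 21 and miR-26b between 36 and 56 in the single samples. By the mean level over the 6 samples, relative to U6 and snoRNA135, miR-26a was at rank 13 and miR-26b at rank 47 of the 461 assays tested, those detected (CT below 40) in 1 sample or more. Assays differ in efficiency, so that these are ranks of CT and not of molecules.

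**Figure D1:**
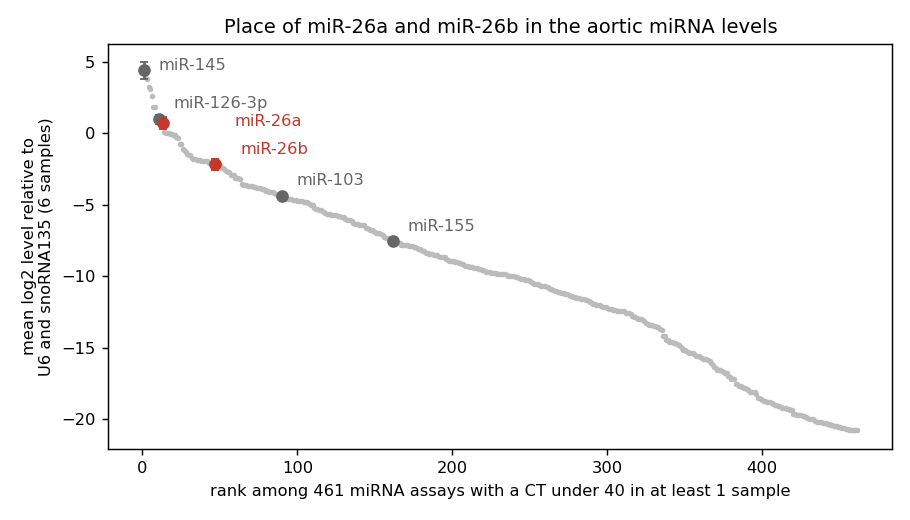
Mean log2 level relative to U6 and snoRNA135 over 6 samples (vertical axis) of the 461 assays, ordered by level (horizontal axis, rank). Grey points are single assays, labelled points carry the SD over the 6 samples, and miR-26a (rank 13) and miR-26b (rank 47), in red, stand on the steep upper part of the curve, above miR-103.

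The assays next above miR-26a in level were miR-193b, miR-126-3p (the endothelial miRNA hosted by Egfl7) and miR-720, at 0.21, 0.26 and 0.29 log2 units above it. These gaps were smaller than the SD of miR-26a over the 6 samples, which was 0.41, and each of the 3 was above miR-26a in 4 of 6 samples. The order among these 4 was therefore not resolved. Next below were miR-191, miR-29a (a repressor of collagen mRNAs) and miR-133a (a miRNA of striated muscle), whose levels lay 0.63, 0.69 and 0.72 log2 units under that of miR-26a. Each was above miR-26a in 1 of 6 samples. MiR-26b had no such step near it: miR-2146, miR-27a and miR-17 above it and miR-24-2*, miR-106a and miR-92a below it lay within 0.068 log2 units, against an SD of miR-26b of 0.40.

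The question of the genotype is whether the loss of Dicer in ECs changed the level of either miRNA in the aorta. Both estimates were higher in EC-Dicerflox aortas, by 0.42 log2 units for miR-26a and 0.46 for miR-26b, and neither passed the test. Relative to U6 and snoRNA135, the log2 level of miR-26a was 0.90, 0.79 and 1.13 in EC-Dicerflox replicates 1, 2 and 3, and 0.73, -0.053 and 0.87 in EC-DicerWT replicates 1, 2 and 3. EC-DicerWT replicate 2 was the lowest of the 6, and the groups overlapped because EC-DicerWT replicate 3 lay above EC-Dicerflox replicate 2. The log2 level of miR-26b was -1.83, -1.79 and -2.23 in EC-Dicerflox and -2.03, -2.88 and -2.33 in EC-DicerWT aortas. EC-DicerWT replicate 2 was again the lowest, and EC-DicerWT replicate 1 lay above EC-Dicerflox replicate 3. The labels do not tie replicate numbers to a litter or day, so that a count of pairs depends on the numbering. Where samples were paired by replicate number, the EC-Dicerflox sample was the higher in 3 of 3 pairs for each miRNA. The pair differences were 0.16, 0.84 and 0.26 log2 units for miR-26a and 0.19, 1.09 and 0.093 log2 units for miR-26b (exact sign-flip test, two-sided p = 0.25, the smallest possible).

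The mean log2 level of miR-26a was 0.94 ± 0.17 (SD, n = 3) in EC-Dicerflox and 0.52 ± 0.50 (SD, n = 3) in EC-DicerWT aortas. This is a log2 fold change of 0.42 (standard error 0.34, 95% interval -0.44 to 1.28) with an unadjusted limma p of 0.267 and an adjusted p of 0.923 over the 461 assays. On a linear scale the estimate was 1.34-fold, with an interval from 0.739-fold to 2.43-fold. The mean log2 level of miR-26b was -1.95 ± 0.24 (SD, n = 3) and -2.41 ± 0.43 (SD, n = 3) in the same order of groups. The estimate was 0.46 on the log2 scale (standard error 0.33, 95% interval -0.37 to 1.29), with an unadjusted limma p of 0.217 and an adjusted p of 0.923, or 1.37-fold with an interval from 0.774-fold to 2.44-fold. An exact permutation of the 6 samples gave a two-sided p of 0.2 for each miRNA, where 0.1 is the smallest that 3 samples against 3 allow. Thus 0 of the 2 miRNAs were called, and their groups overlapped. Over all 461 assays, limma called 0% at an adjusted p of 0.05 and 3.04% (14 assays) at an unadjusted p of 0.05, and the groups did not overlap in 10.4%. In RNA of the whole aorta, a change in the number of cells of a type and a change in RNA per cell cannot be told apart, and miRNAs of smooth muscle, leukocytes and ECs entered each value together.

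**Figure D2:**
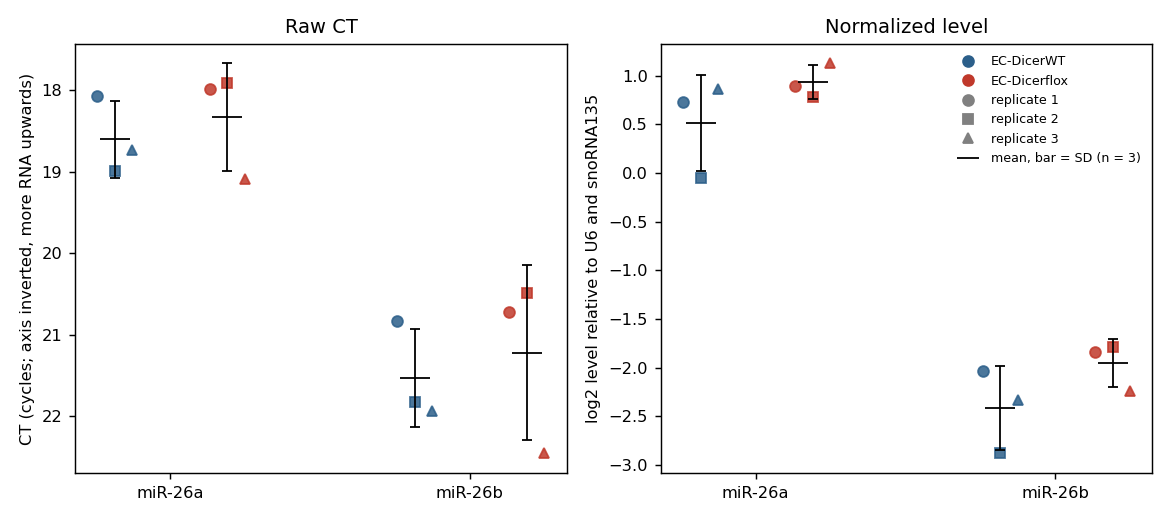
CT in cycles (left, axis inverted) and log2 level relative to U6 and snoRNA135 (right) of miR-26a and miR-26b in each sample. Points are single aortas, the black line is the mean and the bar the SD of 3 samples; after normalization both miRNAs are lowest in EC-DicerWT replicate 2, and the groups overlap.

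The estimates of both miRNAs rested in part on 1 control sample. Without EC-DicerWT replicate 2, the log2 fold change fell to 0.14 for miR-26a (unadjusted limma p of 0.656) and to 0.22 for miR-26b (0.513). In that sample, 18.0% of the 350 assays under 40 in all samples were at their lowest of the 6 samples, against 32.0% in EC-DicerWT replicate 3. The scale moved the estimates less. With U6 alone, snoRNA135 alone or snoRNA202 alone as the control RNA, the log2 fold change of miR-26a was 0.50, 0.34 and 0.26, and that of miR-26b 0.54, 0.38 and 0.30. The median log2 fold change of the 350 assays was 0.10, and relative to it miR-26a stood at 0.32 and miR-26b at 0.36. Of these assays, 19.1% had a higher estimate than miR-26a and 16.3% a higher one than miR-26b.

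**Figure D3:**
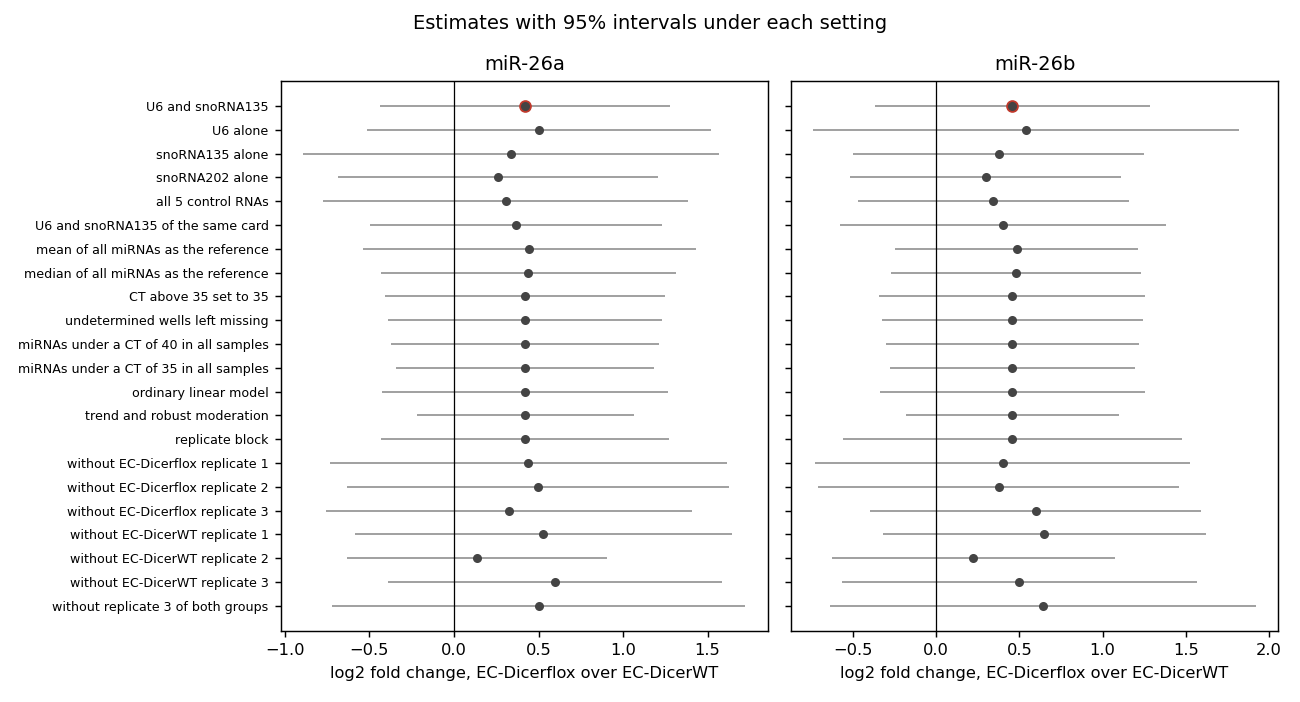
Log2 fold change, EC-Dicerflox over EC-DicerWT (horizontal axis), of miR-26a and miR-26b under each setting (rows), with 95% intervals; the top row, in red, is the estimate reported. All estimates lie above 0, all intervals include 0, and the smallest estimates, 0.14 and 0.22, are those without EC-DicerWT replicate 2. Rows that change only limits, filters, models or the replicate block repeat the reported estimate by construction.

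The gap in CT between miR-26a and miR-26b needs no control RNA, because both are read in the same sample. The CT of miR-26b came 2.73, 2.58 and 3.36 cycles after that of miR-26a in EC-Dicerflox replicates 1, 2 and 3, and 2.76, 2.83 and 3.20 cycles after it in EC-DicerWT replicates 1, 2 and 3. These gaps belong to 2 assays whose efficiencies were not compared, so that no ratio of molecules is given. The order was the same in 6 of 6 samples. The means were 2.89 ± 0.42 cycles (SD, n = 3) in EC-Dicerflox and 2.93 ± 0.23 cycles (SD, n = 3) in EC-DicerWT aortas. Expressed as miR-26b over miR-26a, the genotypes differed by 0.038 log2 units, which is smaller than the pooled SD of 0.34 (exact permutation test, two-sided p = 0.8, adjusted over 7 within-sample relations 1). Differences between single samples of the groups ran from -0.60 to 0.62 log2 units, so that a shift of this size in either direction was not resolved.

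The gap was widest in replicate 3 of both groups. In EC-Dicerflox replicate 3 (3.36 cycles) the mean CT of U6 and snoRNA135 was 20.2, and in EC-DicerWT replicate 3 (3.20 cycles) it was 19.6. In the other 4 samples the gap was 2.58 to 2.83 cycles and that mean CT was 18.7 to 18.9. Hence the samples with the later control RNAs had the wider gap, in both genotypes, and the part of this in the ratio was not tested. Within pairs of the same replicate number, miR-26b over miR-26a differed between the genotypes by 0.029, 0.25 and -0.165 log2 units, without a common direction.

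**Figure D4:**
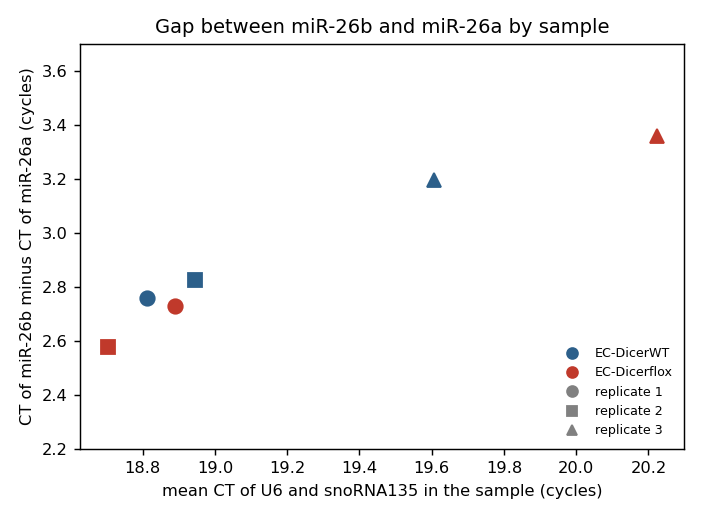
CT of miR-26b minus CT of miR-26a (vertical axis, cycles) against the mean CT of U6 and snoRNA135 (horizontal axis, cycles) in the 6 samples. Colours are genotypes and shapes are replicate numbers; the 2 samples of replicate 3 (triangles) stand apart at upper right, at 3.20 and 3.36 cycles.

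MiR-103 is the miRNA on which the study centres, and the level of the miR-26 miRNAs was set against it within each sample. MiR-26a over miR-103 was 5.46, 5.16 and 5.59 log2 units in EC-Dicerflox replicates 1, 2 and 3, and 5.12, 4.18 and 5.21 log2 units in EC-DicerWT replicates 1, 2 and 3. It was higher in EC-Dicerflox aortas by 0.57 log2 units, and EC-Dicerflox replicate 2 lay below EC-DicerWT replicate 3 (exact permutation test, two-sided p = 0.2, adjusted p = 0.7). MiR-26b over miR-103 was 2.73, 2.59 and 2.23 log2 units in EC-Dicerflox and 2.36, 1.36 and 2.02 log2 units in EC-DicerWT aortas, with a difference of 0.61 in the same unit (two-sided p = 0.2 by exact permutation, adjusted p = 0.7). In pairs of the same replicate number, both ratios were higher in the EC-Dicerflox sample in 3 of 3 pairs. The pair differences were 0.35, 0.98 and 0.38 log2 units for miR-26a and 0.38, 1.23 and 0.21 log2 units for miR-26b, and an exact sign-flip test gave its smallest possible two-sided p of 0.25. Without EC-DicerWT replicate 2 the differences between the groups were 0.24 and 0.33 log2 units.

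Against the other miRNAs that the study lists as slow in turnover, no difference was resolved. These were miR-126-3p, miR-21 (an abundant miRNA of the injured vessel wall) and miR-23a (of a cluster that acts in angiogenesis), whose own log2 fold changes were 0.41, 0.25 and 0.70. MiR-26a over their mean CT was 4.58, 3.73 and 4.55 log2 units in EC-Dicerflox and 4.15, 3.93 and 4.87 log2 units in EC-DicerWT aortas, with overlapping groups and a difference of -0.033 log2 units. For miR-26b over the same mean, the difference was 0.0053 log2 units, and an exact permutation test gave a two-sided p of 1 for each. With the median of the list in place of its mean, which is miR-21 alone in each sample, the differences were 0.175 and 0.21 log2 units. MiR-23a weighs on this mean, with a CT of 28.0 to 31.0 and a standard error of its fold change of 0.62.

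For let-7, the study names only the family as fast in turnover. The list used here holds 8 miRNAs named let-7 and no other member of that family. Against the mean of the 11 miRNAs listed as fast in turnover (miR-27b, miR-103, miR-221 and 8 let-7 miRNAs), miR-26a was higher in EC-Dicerflox aortas by 0.20 log2 units and miR-26b by 0.24 log2 units. Without EC-DicerWT replicate 2 these differences were 0.0041 and 0.092 log2 units. The groups overlapped in both (exact permutation tests, two-sided p = 0.7 and p = 0.4, adjusted p = 1 and p = 0.933). Of the 11, 9 had estimates above 0 and 2 below, from -0.15 for miR-103 to 0.50 for let-7e, and 0 passed an unadjusted limma p of 0.05, where 54.4% of all 461 assays were above 0 and 3.04% passed. The groups did not overlap for 2 of the 11, let-7c and let-7e, both higher, against 10.4% of all assays in either direction. Whether the estimates of the list follow the level of its assays was not tested. The estimates of miR-26a and miR-26b lay inside the ranges of both the fast and the slow list.

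**Figure D5:**
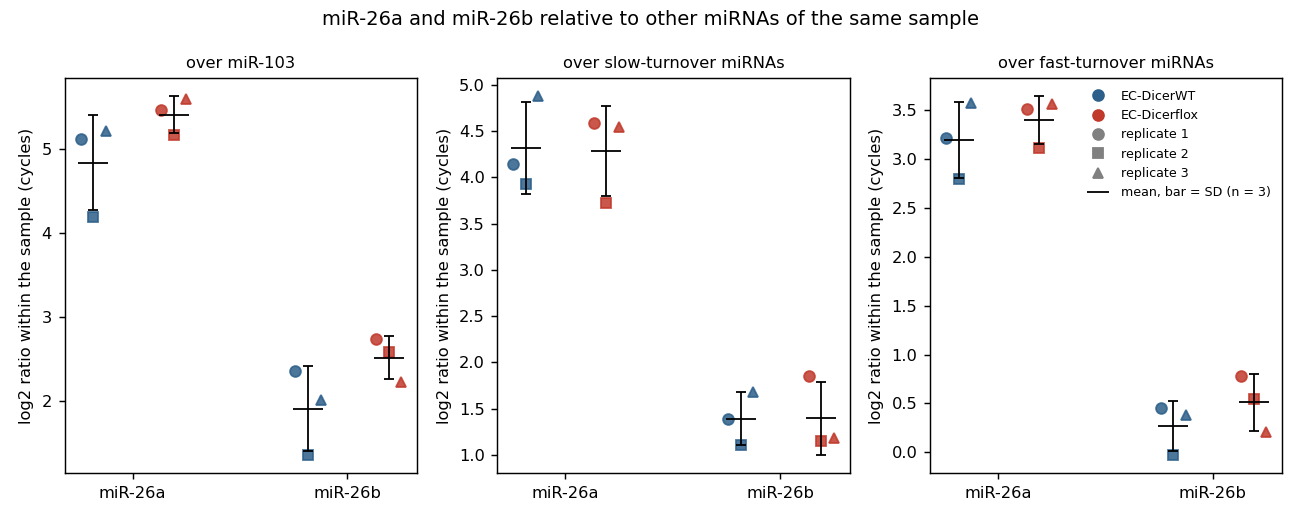
Log2 ratio, within each sample, of miR-26a and miR-26b to miR-103 (left), to the mean of 3 slow-turnover miRNAs (middle) and to the mean of 11 fast-turnover miRNAs (right). Points are single aortas, the line is the mean and the bar the SD of 3 samples; the groups overlap in all panels, and EC-DicerWT replicate 2 is the lowest control in each.

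MiRNAs whose CT moved with that of the miR-26 miRNAs from sample to sample were found by the SD, over the 6 samples, of the CT difference to each of them, which needs no control RNA. CT values of a sample are all read from the same RNA, and samples with later control RNAs had later CT for most assays, so that the measure is a description. Among 349 assays the median SD was 0.648 cycles against miR-26a. The smallest were those of let-7e (0.184 cycles), miR-195 (0.189), let-7g (0.192), miR-494 (0.197) and miR-136 (0.215). For miR-26b they were those of miR-195 (0.175 cycles), miR-34a (0.195), miR-376b (0.227), miR-148a (0.231) and miR-20a (0.261), at a median of 0.592 cycles. MiR-195 was thus near both. Relative to U6 and snoRNA135, each of these nearest assays was lowest in EC-DicerWT replicate 2, as were miR-26a and miR-26b. Whether the same assays stay nearest without that sample was not tested. The miR-26 miRNAs themselves differed with an SD of 0.302 cycles, place 20 in either order, and miR-103 was at place 100 for miR-26a and 128 for miR-26b. Without EC-DicerWT replicate 2, miR-26b was at place 89 for miR-26a, and miR-26a at place 117 for miR-26b.

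SMAD proteins carry the signals of bone morphogenetic proteins and of transforming growth factor-β, and other miRNAs are known to act on this pathway. Of 11 such miRNAs on the arrays, 9 had estimates above 0 and 2 below. At an adjusted and at an unadjusted limma p of 0.05, 0 of the 11 passed, against 0% and 3.04% of all 461 assays. Their median log2 fold change was 0.30, and that of all 461 assays was 0.082, of which 54.4% were above 0. The 11 were under 40 in all samples, and the median of the 350 such assays was 0.10. Without replicate 3 of both groups, the medians of the list and of all assays tested were 0.15 and 0.13. Whether the estimates follow the level of the assays was not tested. MiR-30a, miR-30b, miR-30c, miR-30d and miR-30e, a family that shares its seed, had log2 fold changes from 0.30 to 0.35. The estimate was 0.25 for miR-21 (whose maturation SMADs promote), 0.25 for miR-145 (a smooth muscle miRNA), 0.25 for miR-155 (a miRNA of activated leukocytes) and -0.013 for miR-130a. MiR-146a, a brake on inflammatory signalling, had 0.40 (standard error 0.24, unadjusted limma p of 0.148), and was the only one of the 11 whose groups did not overlap, against 10.4% of all assays. MiR-199a-5p had the lowest estimate and the largest error of the 11, -0.62 with a standard error of 0.85. The estimates of miR-26a and miR-26b were both above the highest of these, by less than their standard errors.

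No marker of a cell type passed an adjusted limma p of 0.05, nor did any other of the 461 assays. The estimates of the markers differed in sign and size. Of the endothelial miRNAs, the estimate of miR-126-3p was 0.41 on the log2 scale (unadjusted limma p of 0.193) and that of miR-126-5p 0.85 (0.0727), and both had higher levels in every EC-Dicerflox than in every EC-DicerWT sample, a separation that 10.4% of all assays showed in either direction. The smooth muscle miRNAs miR-143 and miR-145 had 0.14 and 0.25. Of 4 leukocyte miRNAs, 3 had estimates below 0 and 1 above, with a median of -0.40, and miR-142-5p (-0.996, unadjusted limma p of 0.00989) was the only one under an unadjusted p of 0.05, as were 3.04% of all assays; its adjusted limma p was 0.923. The 4 of 6 striated muscle miRNAs that were tested had estimates above 0, from 0.13 for miR-133a to 2.02 for miR-208, which was detected in 3 samples only; miR-499 was at 40 in all samples and miR-206 was not analysed here. The erythroid miR-451 had 0.21 (unadjusted limma p of 0.784), and miR-144 was not analysed here. The mean CT of the endothelial list ranged from 18.7 to 21.0 in EC-Dicerflox and from 19.8 to 20.8 in EC-DicerWT aortas, and that of the smooth muscle list from 15.8 to 16.5 and from 15.9 to 16.4. The part of cell composition in the estimates of miR-26a and miR-26b was not tested.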

How the data were processed

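Aortas of 3 EC-Dicerflox and 3 EC-DicerWT mice were profiled. MiRNAs were measured by real-time PCR on TaqMan cards, from total RNA whose cDNA had been made and pre-amplified with the Megaplex rodent primer pools. The authors deposited unnormalized CT values (6 columns, 0 unused); how threshold and baseline were set is not given in the sources used here. The table holds 608 assays, among them 596 of mouse miRNAs. The length of the assay numbers splits these into sets of 335 and 261, taken as 2 cards. Some miRNAs have an assay in each set, so that tests count assays.

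Levels are minus the CT, relative to the sample's own mean of U6 and snoRNA135. Groups were compared with limma 3.58.1 in R 4.3.3 (lmFit, eBayes) over the 461 assays detected (CT below 40) in 1 sample or more, with Benjamini-Hochberg adjustment. Ratios within a sample were compared by exact permutation (20 arrangements, two-sided), which covers the spread between these samples. The limma step was tested on simulated data. The number of arrays limits the precision. Same-numbered samples deviated together over 350 assays (r = 0.150, 0.224 and 0.431 for numbers 1, 2 and 3, each over the 0.1 set as the rule). EC-Dicerflox replicate 1 with EC-DicerWT replicate 2 (0.285) and EC-Dicerflox replicate 2 with EC-DicerWT replicate 1 (0.117) passed it too, so that the numbers set replicate 3 apart and do not part replicates 1 and 2. The methods call the groups littermates, but neither labels nor methods say which replicate numbers share a litter or day.

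The members, the turnover, SMAD and cell type lists, and the alternatives were chosen with earlier results of these data known. Named miRNAs are the members, the list members, the 3 assays next above and below each member in level, and the 5 with the smallest SD of the CT difference. Leaving out replicate 3 of both groups, and the alternatives of the SMAD list, were added after seeing the data.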

Additional observations from a re-analysis of the deposited data

How the results depend on the processing

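The log2 fold changes of miR-26a and miR-26b stayed above 0, at adjusted limma p from 0.767 to 0.993, in the 15 alternatives (other control RNAs, references, limits, filters, models, the replicate block, and both replicates 3 left out) and when each of the 6 samples was left out in turn. They ranged from 0.26 to 0.50 and from 0.30 to 0.64 over the former, and from 0.14 to 0.60 and from 0.22 to 0.65 over the latter. The limits, filters, models and replicate block could not move them, and left them at 0.42 and 0.46. Both miRNAs were detected in 6 of 6 samples and each replicate number is in both groups, so that these settings bear on the p only. The replicate block gave unadjusted limma p of 0.225 and 0.259 and changed no call. Within pairs of the same number, the mean differences of the ratios equal those reported by construction, since each group has 3 samples. Without 1 sample, miR-26b over miR-26a ranged from -0.12 to 0.27 log2 units, miR-26a over the slow list from -0.23 to 0.25 and miR-26b over it from -0.22 to 0.15, so that the signs of these small differences were not settled. MiR-26a over the slow list was 0.175 with the median of the list and 0.12 without both replicates 3. For miR-26b over the slow list the median gave 0.21 and leaving out both replicates 3 gave 0.26. The ratios to miR-103 kept their sign. Those to the fast list did too, but without EC-DicerWT replicate 2 they were 0.0041 for miR-26a and 0.092 for miR-26b. The number of assays at an adjusted p under 0.05 was 0 in all 15 alternatives and 0 to 2 without 1 sample (2 without EC-Dicerflox replicate 1, 1 without EC-Dicerflox replicate 3); at an unadjusted p it was 14, and 9 with U6 alone, 24 with the ordinary linear model and 22 without EC-Dicerflox replicate 1. The median of the SMAD list was 0.14 with snoRNA202 alone (all assays -0.079), 0.19 with 5 control RNAs (all assays -0.034) and 0.15 without both replicates 3, where that of all assays was 0.13. Within its card, miR-26a ranked 9. The place of miR-26b in the order of likeness to miR-26a was 35 with the SD within groups and 12 to 89 without 1 sample, and that of miR-26a in the order of miR-26b was 50 and 6 to 117; it was latest without EC-DicerWT replicate 2, so that these places are not stable. The cause of these changes was not tested. With 3 samples a group, differences of the size seen here were not resolved.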
